A study of Mus musculus with 4 samples.

Results

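Cytosolic ribosomal protein genes encode the proteins of the ribosome outside mitochondria. The genes described here are those whose symbol in the array's annotation is Rpl or Rps with a number and at most 1 of the letters a, x, y or l, together with Rpsa and Rplp0, Rplp1 and Rplp2. A gene counted as a member when at least 1 probe set carried that symbol alone, and where several did, the one brightest on average stood for it. This gave 35 members of 8220 genes, 18 of the small 40S subunit and 17 of the large 60S subunit, read from 45 probe sets. Rplp1 and Rplp2 had no probe set of their own and are not members. The choice used levels only to pick among probe sets of a gene, and no difference between arrays entered it.

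The study followed dendritic cells, the cells that present antigen to T cells, as they arose in culture from mouse bone marrow. The 4 groups were dendritic cell progenitors amplified in vitro, cells differentiated from them for 7 days, cells differentiated for 10 days, and cells differentiated for 10 days that were stimulated with tumour necrosis factor alpha (TNF) over 16 h. Each group was measured on 1 Affymetrix array of total RNA. Without replicates, each comparison sets 1 array against 1 other, and no test or p-value is given. The labels used here do not give the strain, the age or the number of mice or cultures. The cells shared an origin in amplified progenitors, and no group was taken fresh from tissue.

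A ribosome holds one copy of most ribosomal proteins, so cells make these proteins in balanced amounts. In mammals their mRNAs begin with a short run of pyrimidines, the 5′ terminal oligopyrimidine (TOP) motif, through which the kinase mTOR controls their translation. Much of their regulation therefore acts on translation and is not read by an RNA array. Ribosomal protein mRNAs are among the most abundant in growing cells, and processed pseudogenes of them are scattered over the genome. The signal of a probe set can include such copies, so a value of a single member is uncertain in that respect.

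Levels are scaled intensities, here called units, after each array was brought to a common 75th percentile. A log2 ratio is the difference of log2 levels, after values below 105 units (the 40th percentile of all values) were raised to 105. Folds of single genes use a stricter floor of 428 units, the 60th percentile, and are written "at least" where the dimmer array lies under it. Intensities of different probe sets do not rank genes by abundance, because probes differ in how strongly they bind.

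The 35 members fell into bright and dim probe sets. In 22 members, 11 of each subunit, the mean over the 4 arrays lay above 428 units, and 21 of these lay above it on every array. The exception was Rpl22, which passed 428 units only on the 2 day 10 arrays, so its place among the 22 comes from its level there. In 18 members the mean lay above 16384 units, and these 18 are called the bright members. They read 7198 to 35972 units on the progenitor array, 6036 to 27553 at day 7, 23902 to 111767 at day 10 and 31284 to 83179 with TNF. Both day 10 arrays thus read higher for most of them. The mean includes these 2 arrays, and Rpl41, Rpl37a, Rpsa and Rpl7a lay under 16384 units in progenitors and at day 7. The class was thus partly set by the level at day 10. The other 4 with a mean above 428 were Rpl13a, Rps27, Rps27l and Rpl22.

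In the remaining 13 members the mean lay below 428 units, and 12 of them stayed below it on all arrays. These are Rpl24, Rpl32, Rpl35a, Rpl38, Rpl39, Rpl39l, Rps13, Rps14, Rps15, Rps20, Rps25, Rps29 and Rps4l. Their levels ran from -678 to 324 units in progenitors, from -674 to 251 at day 7, from -483 to 417 at day 10 and from -262 to 481 with TNF. In 8 of them at least 1 array read below 0, and Rps13 and Rpl35a read below 0 on all 4. Most of these genes encode core ribosomal proteins that dividing cells need, so a dim probe set is no evidence that the gene is silent. Rpl38, which mice need for translation of Hox mRNAs, read 158 units in progenitors, 134 at day 7, 56.7 at day 10 and 111 with TNF. Rpl24, the gene altered in the Belly spot and tail mouse, read 189 units, 251, 416.5 and 282 in the same order. Neither passed 428 units on any array, so no fold is given.

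**Figure D1:**
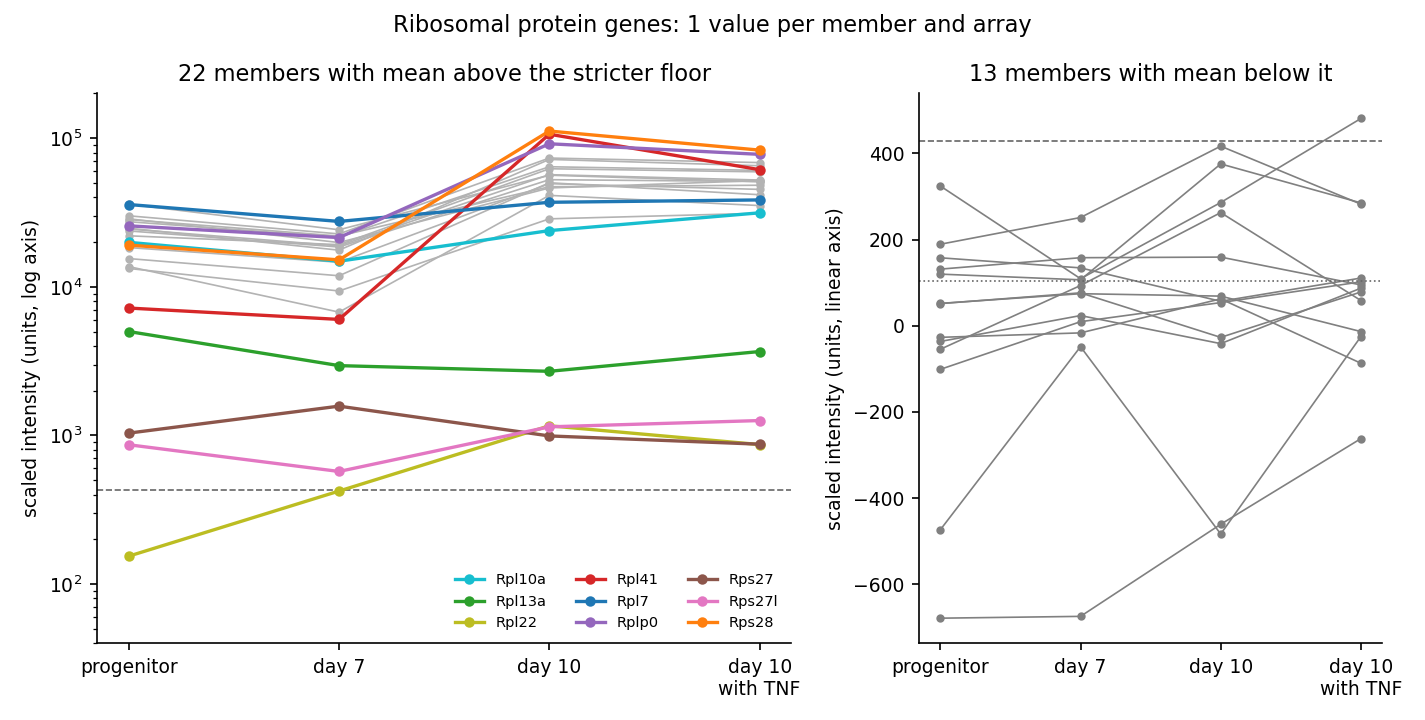
Scaled intensity of each member on the 4 arrays, 1 point per member and array, with 22 members whose mean is above 428 units at left (log axis) and the 13 others at right (linear axis). Coloured lines are 9 members named in the text; the dashed line marks 428 units and the dotted line 105. Most of the upper lines dip slightly at day 7 and stand higher on both day 10 arrays, while Rpl13a and Rps27 read lower at day 10 than at day 7.

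Promoter windows are shown for 5 members with high day 10 to day 7 ratios (Rpl41, Rps28, Rpl37a, Rplp0 and Rpl7a) and for the 2 with the lowest (Rpl13a and Rps27), so that the base composition at their starts can be compared. The sequences are from RefSeq on GRCm38.p6, of which 28 of the 35 members had at least 1 promoter. Each window runs from 50 bases before the annotated start to 30 after it, 5′ to 3′ on the gene's strand, with the longest run of C and T in capitals.
Rpl41 (chr10:128549139-128549218, minus strand): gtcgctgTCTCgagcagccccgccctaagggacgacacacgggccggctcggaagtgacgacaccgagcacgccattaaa
Rps28 (chr17:33824533-33824612, minus strand): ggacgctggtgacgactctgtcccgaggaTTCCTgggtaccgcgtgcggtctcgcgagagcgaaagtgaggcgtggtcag
Rpl37a (chr1:72711210-72711289, plus strand): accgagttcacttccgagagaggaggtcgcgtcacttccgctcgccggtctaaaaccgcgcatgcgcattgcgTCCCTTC
Rplp0 (chr5:115559417-115559496, plus strand): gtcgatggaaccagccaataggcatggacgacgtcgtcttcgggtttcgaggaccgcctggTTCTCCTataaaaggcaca
Rpl7a (chr2:26910757-26910836, plus strand): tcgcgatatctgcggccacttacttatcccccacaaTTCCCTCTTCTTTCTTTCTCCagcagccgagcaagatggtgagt
Rpl13a (chr7:45128716-45128795, minus strand): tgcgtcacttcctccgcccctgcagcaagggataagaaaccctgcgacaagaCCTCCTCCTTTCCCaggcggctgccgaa
Rps27 (chr3:90213619-90213698, minus strand): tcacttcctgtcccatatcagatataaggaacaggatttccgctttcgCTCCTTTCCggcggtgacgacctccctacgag

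The longest run was 4 bases in Rpl41, 5 in Rps28, 7 in Rpl37a and Rplp0, 21 in Rpl7a, 14 in Rpl13a and 9 in Rps27. Short and long runs thus both stood among the members with high ratios, and no relation of run length to the ratios is claimed. Over all 37 promoters of the members, 19 (51.4%) held a run of at least 8 such bases in this window, against 30.4% of all 32851 promoters in the table. These 37 belong to 28 genes, so a gene with several annotated starts counts more than once, and overlapping windows of Rpl35a hold the same run. The letters CCGGAAG, a core bound by Ets factors, stood on either strand of the whole 300 bases in 12 member promoters (32.4%), against 8.86% of all promoters. The letters TATAAA stood in 4 (10.8%), against 13.6%. Annotated starts can lie some bases from the start used in these cells, and a match is a description of the letters only.

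Before the comparisons, the controls on the arrays are given, because they too differed between the arrays. The 9 probe sets for bacterial transcripts added to each sample had a median log2 ratio of 1.5 for day 10 over day 7 (range 1.2 to 1.77), -0.34 for day 7 over progenitor and -0.50 for TNF over day 10. The highest probe set read 41044 units in progenitors, 30560 at day 7, 137313 at day 10 and 89121 with TNF. A probe set at the 3′ end of 18S rRNA, the RNA of the small subunit, read 260 units, 204, 5637 and 5058 in the same order, and the 5′ one -50.6, -81.4, 1001 and 4450, while the middle one was below 105 on all 4. The ratio of 3′ to 5′ probe sets was 0.938 to 1.11 for Actb and 0.798 to 0.944 for Gapdh over the arrays. The part of these array differences in the results was not tested, and with 1 array per group the group and the array cannot be told apart. For this reason each comparison is also given after quantile normalization, which gives all arrays one distribution, and after centring on the spiked transcripts.

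The label of the cells was checked against marker genes. Of 10 dendritic cell markers, 3 lay above 428 units in progenitors and all 10 on each of the other arrays. Of 9 granulocyte markers, 9 lay above it in progenitors, 9 at day 7, 7 at day 10 and 5 with TNF. Their summed level was 212571, 120710, 141582 and 17162 units in that order. The sum hides opposite directions from day 7 to day 10. S100a8, Ngp and S100a9 read higher at day 10, while Camp, Ctsg, Elane, Ltf, Mpo and Prtn3 read lower. Of 8 macrophage markers 5 lay above 428 units on each array, but not the same 5. Adgre1, Cd68 and Csf1r passed it on all arrays, C1qa and C1qc in progenitors only, and Mmp12 and Mrc1 on the other arrays only. The summed levels were 10218, 60896, 135167 and 93268 units. Stromal markers lay under 428 units on all arrays, at most 2 of 4 measured erythroid markers and 1 of 8 markers of other organs passed it, and of 6 measured B, T and NK cell markers only Cd79b passed it. A lower share of a cell type and less RNA per cell cannot be told apart in bulk RNA, and the part of these shifts in the results was not tested.

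The first comparison asks how ribosomal protein mRNA differs between cells after 7 days of differentiation and progenitors. It was slightly lower at day 7 in 20 of the 22 members with a mean above 428 units, where 2105 of 4091 genes were lower. All 18 bright members read lower, with log2 ratios from -1.02 to -0.20. The median over the 22 was -0.38, beside -0.03 over all 4091 genes above that mean. Only Rpl37a, a zinc-binding 60S protein, was at least 2-fold lower, 1 of 22 where 10.4% of all genes were, and only Rpl22 was counted at least 2-fold higher, 1 of 22 where 14.3% of all genes were. That call rests on the floor of 105 units, since Rpl22 lay under 428 units on both arrays, and with the floor at 428 units 0 members were higher. The log2 ratios of 2 probe sets of a gene differed with an SD of 0.83 (672 genes), which gives an SD of 0.59 for a single ratio. Both probe sets are read on the same arrays, so this SD holds only their disagreement. Differences between arrays or cultures are not in it, here and in the comparisons below, and a ratio beyond it can still reflect them. The ratios of Rpl37a, Rpl22, Rpl13a, Rps27 and Rps27l exceed this SD, and those of the other 17 members lie within it.

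Rpl37a read 6756 units at day 7, against 13685 in progenitors, 2.03-fold lower. Rps10, a 40S protein at the mRNA entry side that is ubiquitinated when ribosomes collide, read 24210 units at day 7, against 35972 in progenitors. Rps4x, the X-linked 40S protein, read 19868 units at day 7, against 28694 in progenitors. These are modest differences of under 1.5-fold for the last 2. Rpsa, a 40S protein also known as the laminin receptor precursor, read 9376 units at day 7, against 13295 in progenitors. Rpl13a, a 60S protein that leaves the ribosome in interferon-treated macrophages to silence mRNAs, read 2950 units at day 7, against 5004 in progenitors (1.70-fold lower). Rps7, a 40S protein that binds the p53 regulator Mdm2, had the smallest difference of the bright members, with 19219 units at day 7 and 22055 in progenitors.

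Rps27 and Rpl22 had the opposite sign. Rps27, a zinc-finger 40S protein, read 1574 units at day 7, against 1036 in progenitors, while its paralog Rps27l, which p53 induces, read 572 units at day 7 and 866 in progenitors. Rpl22, whose loss in mice blocks development of alpha-beta T cells, read 422 units at day 7 and 154 in progenitors, both under 428, so no fold is given. A second Rpl22 probe set read 83.3 units at day 7 and 122 in progenitors, opposite in direction to the first.

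After quantile normalization the median of the 22 members was -0.22, and again 1 was higher (14.4% of all genes) and 1 lower (10.8%). After centring on spiked transcripts it was -0.04, beside 0.29 over all genes, with 1 member higher (20.4% of all genes) and 0 lower (5.92%). The ratio of most members is thus close to that of the spiked transcripts (-0.34). Of the 22 members, 17 lay below 0 after quantile normalization, where 2081 of 4090 genes did. After spike-in centring 15 lay below 0, where 1433 of 4205 genes did.

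The second comparison asks what separates day 10 from day 7. The ribosomal protein genes read higher at day 10, and by unequal amounts. In the 75th percentile scaling 17 of 22 members (77.3%) were at least 2-fold higher, where 8.7% of all genes were, and 0 were at least 2-fold lower, where 6.94% were. The median log2 ratio was 1.58, beside 0.05 over all genes, and the range over the 18 bright members was 0.43 to 4.14. These 18 were set by a mean that includes both day 10 arrays, so that range follows in part from the choice. The SD of a single ratio, from probe sets of 665 genes, was 0.60. The 40S and 60S members had similar medians, 1.59 and 1.51 over 11 each.

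Other bright genes and the spiked transcripts (1.5) also read higher at day 10. Of the 32 other genes with a mean above 32768 units, 30 were at least 2-fold higher at day 10 and the median was 1.79, and of 83 others between 16384 and 32768 units the median was 0.94. These bands use a mean that includes both day 10 arrays, and no probe set read above 30560 units at day 7. A mean above 32768 units thus needs higher readings on other arrays, so the count of 30 was largely set by the band. After quantile normalization the median of the members was 0.26, with 7 of 22 at least 2-fold higher (6.7% of all genes) and 1 lower (7.85%). After centring on the spiked transcripts it was 0.10, with 3 higher (0.999% of all genes) and 3 lower (76.7%), while the median of all genes moved to -1.45. Over all genes the split of at least 2-fold higher against lower was 356 against 284 in the 75th percentile scaling, 274 against 321 after quantile normalization, 294 against 368 in the values as deposited and 42 against 3224 after spike-in centring. The median of the members was above that of all genes in each of these scalings. It also stayed above 0 in each (1.46 in the values as deposited), but its size depended on the scaling. After quantile normalization 13 of 22 members lay above 0 and 9 below it, where 1929 of 4090 genes lay above 0 and 2150 below. The same member counts held after spike-in centring, where only 159 of 4205 genes lay above 0 and 4039 below.

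**Figure D2:**
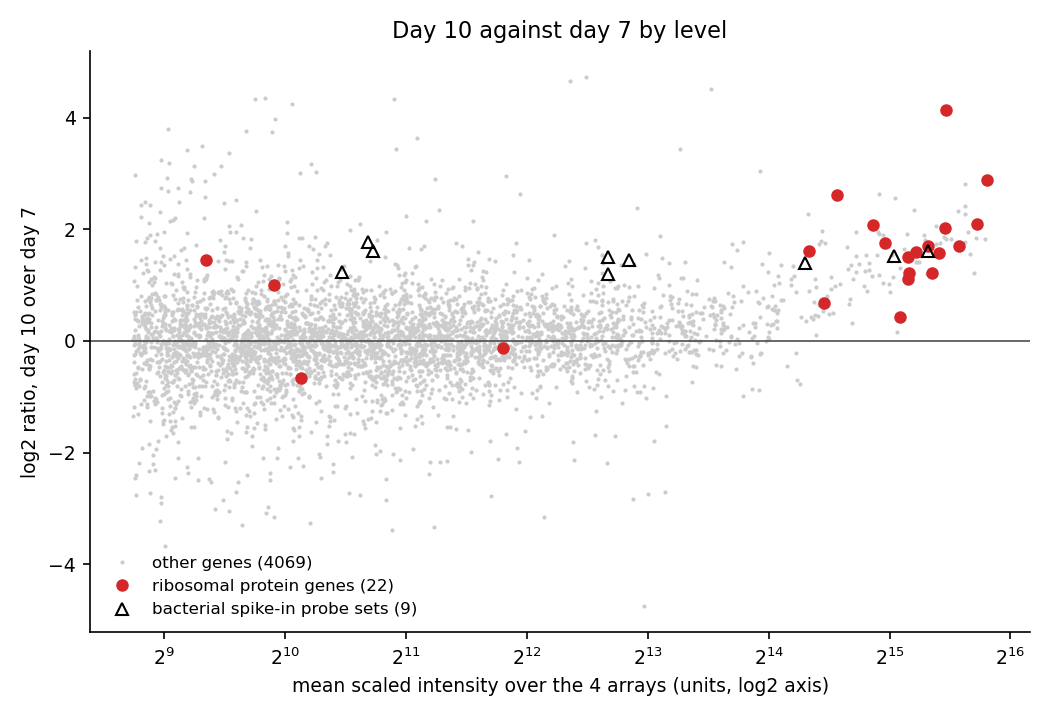
Log2 ratio of day 10 over day 7 against the mean scaled intensity over the 4 arrays (log2 axis), 1 point per gene with a mean above 428 units, for 22 ribosomal protein genes, 4069 other genes and 9 spike-in probe sets. Genes above 16384 units mostly lie above 0, the ribosomal protein genes among them, and the spike-in probe sets lie between 1.2 and 1.77 at all levels. The mean on the horizontal axis includes both day 10 arrays, so the level is not independent of the ratio.

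Within the family, Rpl41, Rps28 and Rpl37a stood above the rest in all 3 scalings. Rpl41, which encodes one of the shortest proteins known, a basic peptide between the subunits, read 7198 units in progenitors, 6036 after 7 days, 106411 after 10 days and 61442 after TNF. It was 17.6-fold higher at day 10 than at day 7, with a log2 ratio of 4.14, or 3.26 after quantile normalization and 2.66 after spike-in centring. Its probe set name marks it as shared within a gene family, and it has no other probe set of its own. Rps28, a small 40S protein near the mRNA exit site, read 19088 units, 15187, 111767 and 83179 in the same order. It was 7.36-fold higher at day 10 than at day 7, with log2 ratios of 2.88, 1.69 and 1.40 in the 3 scalings. Its probe set is also marked as shared, and a second, unshared one of similar brightness gave 22521 units in progenitors, 17686 at day 7, 83434 at day 10 and 61304 with TNF (log2 ratio 2.24 for day 10 over day 7). Both bright Rps28 probe sets thus had the same order of arrays. Rpl37a read 41257 units at day 10, against 6756 at day 7, a 6.11-fold difference with log2 ratios of 2.61, 2.01 and 1.13.

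Further members lay between these and the family median, or close to it. Rplp0, the scaffold of the stalk that recruits translation factors, read 25731 units in progenitors, 21451 at day 7, 91759 at day 10 and 77910 with TNF. It was 4.28-fold higher at day 10 than at day 7, with log2 ratios of 2.10, or 0.35 once quantile normalized. Rps3, a 40S protein at the mRNA entry channel, read 24496 units, 18881, 56857 and 52333 in the same order, with ratios of 1.59 and 0.22 for day 10 over day 7. Rps19, whose human gene is mutated in Diamond-Blackfan anaemia, read 18374 units, 14636, 49461 and 45270, with ratios of 1.76 and 0.85. Rpsa read 28676 units at day 10 and 9376 at day 7, with ratios of 1.61 and 1.08. The 60S gene Rpl7a read 50154 units at day 10 and 11872 at day 7, with ratios of 2.08 and 1.36. Rpsa, Rpl7a, Rps27l (1.02) and Rpl22 (1.48) were, with Rpl41, Rps28 and Rpl37a, the 7 members at least 2-fold higher after quantile normalization. Rps24 read 73580 units at day 10 and 22705 at day 7 (3.24-fold higher), but its probe set lists the same source accession as that of Rpl7, and another Rps24 probe set read 224 and 183 units. The gene behind the Rps24 and Rpl7 values is therefore uncertain.

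Other members lagged. Rpl7, a 60S protein, read 35796 units in progenitors, 27553 at day 7, 37068 at day 10 and 38447 with TNF. It was 1.35-fold higher at day 10 than at day 7, with log2 ratios of 0.43, -1.20 quantile normalized and -1.05 spike-in centred, which made it the 1 member at least 2-fold lower after quantile normalization. The Rps24 probe set with the same source accession had a log2 ratio of 1.70, so these 2 bright probe sets disagree, and the second probe set of Rpl7 lay under 105 units on all arrays. Rpl10a, the protein of the L1 stalk that guides tRNA out of the ribosome, read 19922 units, 14870, 23902 and 31484 in the same order, 1.61-fold higher at day 10 than at day 7. Rpl8, which lies near the peptidyl transferase centre, and Rps10 and Rps4x were 2.15-fold, 2.33-fold and 2.33-fold higher. After quantile normalization their log2 ratios were -0.46, -0.55 and -0.17. A second Rps4x probe set, marked as shared within a family and much dimmer, read 1785 units at day 10 and 3591 at day 7 (log2 ratio -1.01), opposite in sign to the first.

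Of the 22 members with a mean above 428 units, Rps27 and Rpl13a were the 2 with a lower level at day 10 than at day 7 in the 75th percentile scaling. Rps27 read 992 units at day 10 and 1574 at day 7 (1.59-fold lower), and Rpl13a 2701 and 2950 units (1.09-fold lower), and quantile normalization hardly altered either ratio (-0.69 and -0.18). Both are read far below the bright members, and other genes between 512 and 2048 units and between 2048 and 8192 units had median ratios of -0.02 and 0.06. Rpl22 read 1161 units at day 10 and 422 at day 7, a difference of at least 2.71-fold, while its second probe set was under 105 units on both arrays. Rps27l read 1143 units at day 10 and 572 at day 7, just under 2-fold higher. The paralogs Rps27 and Rps27l thus had opposite signs in this scaling and after quantile normalization (-0.69 and 1.02), but both were below 0 after spike-in centring (-2.14 and -0.48).

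**Figure D3:**
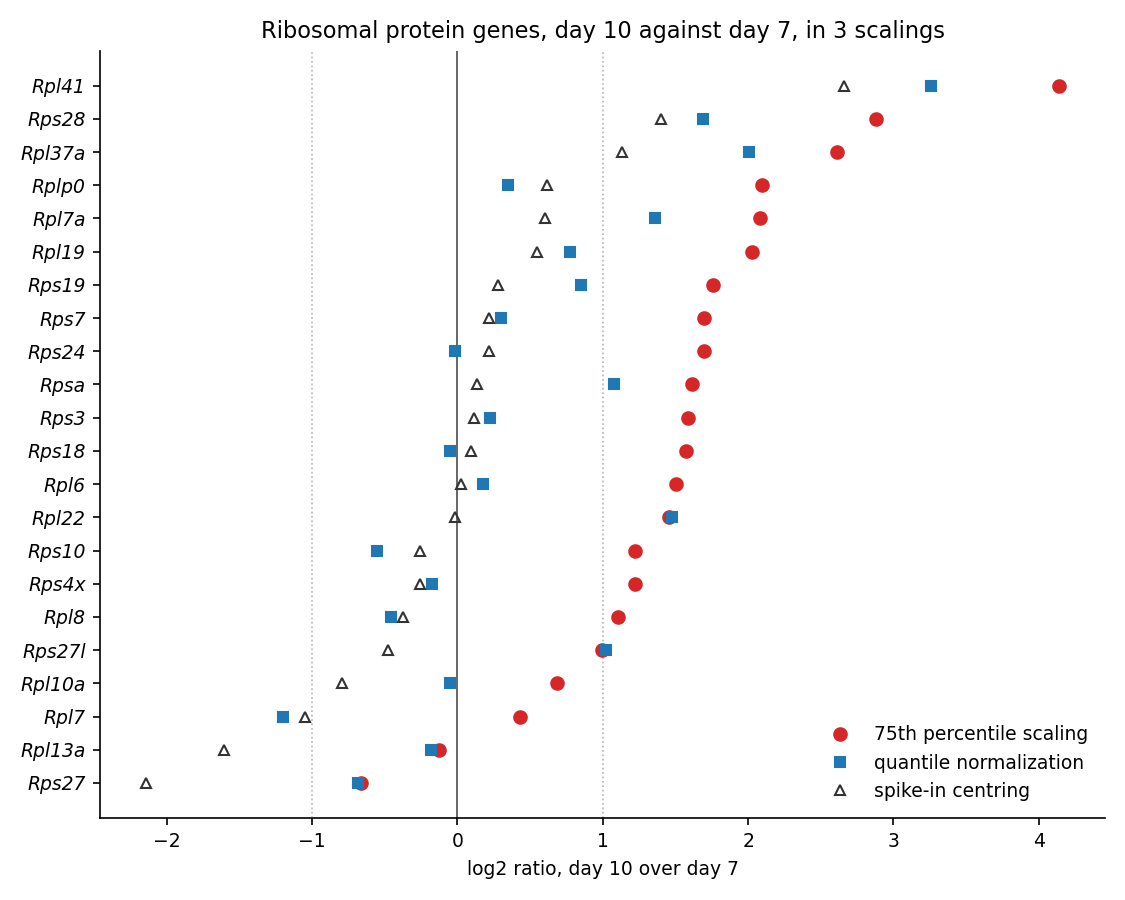
Log2 ratio of day 10 over day 7 for 22 members, sorted by the ratio in the 75th percentile scaling, with the ratios after quantile normalization and after centring on spiked transcripts beside it. Dotted lines mark 2-fold. Rpl41, Rps28 and Rpl37a lie above 1 in all 3 scalings and Rps27 and Rpl13a below 0 in all 3, while Rpl7 lies above 0 in the first only.

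The place of a probe set among the 12654 on its own array does not depend on scaling, so ranks compare the members without it. The median rank of the 22 members was 112 in progenitors, 155 at day 7, 84 at day 10 and 74 with TNF, where 1 is the brightest. Members among the 100 brightest probe sets numbered 10, 10, 14 and 14 in that order. Rpl7 ranked 4 in progenitors, 3 at day 7, 127 at day 10 and 111 with TNF. The Rps24 probe set of the same source accession ranked 21, 31, 33 and 24, so the place of Rpl7 is uncertain. Rps10 ranked 3, 11, 66 and 69. Rpl7 and Rps10 ranked dimmer on the 2 day 10 arrays. Rpl41 ranked 551, 666, 4 and 38, and Rps28 136, 180, 2 and 2. Rplp0 ranked 54, 48, 15 and 7. Of 22 members, 13 ranked brighter at day 10 than at day 7 and 9 ranked dimmer.

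**Figure D4:**
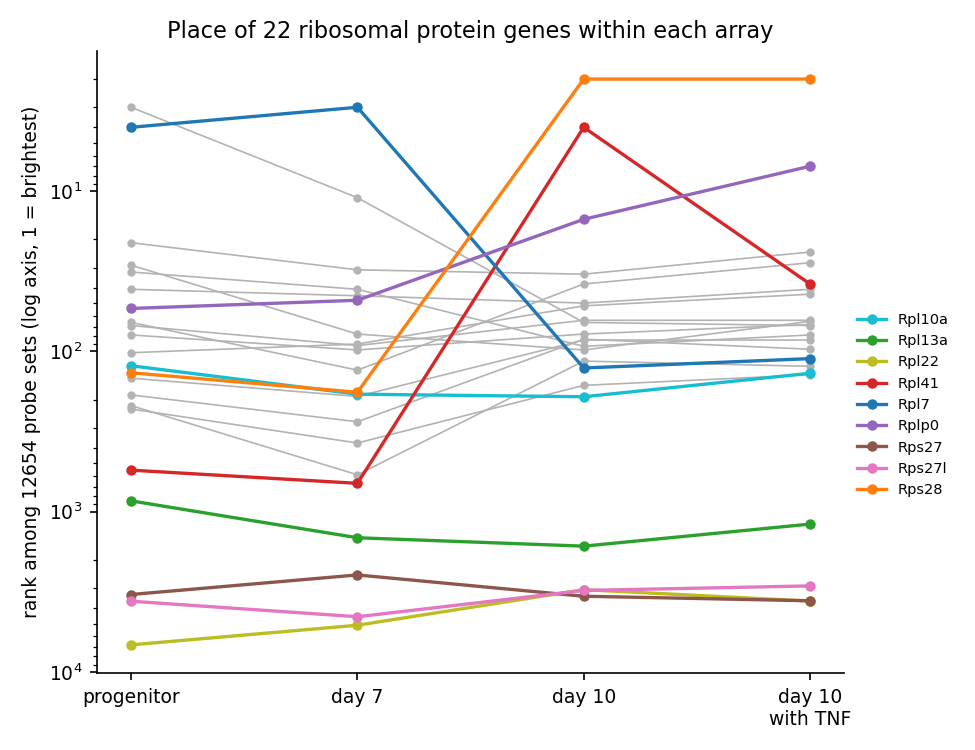
Rank of 22 members among the 12654 probe sets of each array, on a reversed log axis so that the brightest are at the top. Coloured lines are 9 members named in the text. Rpl7 ranks 127 at day 10, against 3 at day 7, while Rpl41 ranks 4 and Rps28 ranks 2 at day 10.

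The third comparison sets day 10 directly against progenitors. It shares its arrays with the first 2, so it adds values but no independent evidence. In the 75th percentile scaling 14 of 22 members were at least 2-fold higher, where 21.4% of all genes were, and 0 lower, where 16.6% were. The median log2 ratio was 1.22, beside 0.05 over all genes, and 1.18 for the spiked transcripts. After quantile normalization the median was 0.15, with 3 higher (19.0% of all genes) and 1 lower (18.0%). After spike-in centring it was 0.08, with 3 higher (7.49% of all genes) and 3 lower (54.4%).

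The 3 higher after quantile normalization were Rpl41 (14.8-fold, log2 ratio 3.89, or 3.01), Rps28 (5.86-fold, 2.55, or 1.34) and Rpl22 (at least 2.71-fold, 2.92, or 2.78). Again, Rpl22 is counted only through its level on the day 10 arrays. The 1 lower was Rpl7, at 37068 units at day 10 and 35796 in progenitors, with log2 ratios of 0.05 and -1.19. Rpl13a was 1.85-fold lower, at 2701 units at day 10 and 5004 in progenitors, and its ratio of -0.89 was -0.96 after quantile normalization. Rps27 differed by 1.04-fold. The SD of a single ratio, from probe sets of 635 genes, was 0.77, or 0.78 after quantile normalization. Of the members just named, Rpl41, Rps28, Rpl22 and Rpl13a exceed it in both scalings, and Rpl7 exceeds it after quantile normalization.

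The last comparison asks what differed after 16 h of TNF in day 10 cells. Ribosomal protein mRNA differed little. None of 22 members was at least 2-fold higher or lower in any of the 3 scalings, where 5.65% of all genes were higher and 7.33% lower in the 75th percentile scaling. The same shares were 5.87% and 7.19% after quantile normalization and 15.2% and 2.81% after spike-in centring. The median log2 ratio was -0.11, beside -0.06 over all genes and -0.50 for the spiked transcripts. It was 0.09 after quantile normalization, beside -0.03 over all genes, and 0.39 after spike-in centring, beside 0.44 over all genes. The lower and upper quartiles of the members were -0.217 and 0.048, beside -0.416 and 0.275 over all genes. Of the 22 members, 19 lay within 0.5 of their median, as at day 7 against progenitors (19), whereas 13 did at day 10 against day 7. The share of all genes within 0.5 of their own median was not counted, so these counts describe the members only.

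The lowest ratios in the 75th percentile scaling belonged to Rpl41, Rps28 and Rpl22. Rpl41 read 61442 units with TNF, against 106411 at day 10 without it, 1.73-fold lower (log2 ratio -0.79, or -0.45 after quantile normalization). Rps28 read 83179 units with TNF and 111767 without it (1.34-fold lower, -0.43, or 0.00), and Rpl22 868 and 1161 units (1.34-fold lower). The highest ratios belonged to Rpl13a and Rpl10a. Rpl13a read 3669 units with TNF and 2701 without it (1.36-fold higher), and Rpl10a 31484 and 23902 units (1.32-fold higher). Rps4x read 51890 units with TNF and 46280 without it, 1.12-fold higher. The SD of a single ratio, from probe sets of 674 genes, was 0.52. All of these ratios lie within it except that of Rpl41 before quantile normalization.

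Of the dim members, Rps4l, a paralog of Rps4x, read 481 units with TNF and 286 without it, the one reading of a dim member above 428 units. Rpl39l, a paralog of Rpl39 that is enriched in testis, read 131 units in progenitors, 158 at day 7, 159 at day 10 and 94.7 with TNF. Rps29 read 375 units at day 10 and 106 at day 7. Rpl39 read 262 units at day 10 and 93.3 at day 7. Rpl32, Rps13, Rps14, Rps15, Rps20, Rps25 and Rpl35a lay under 105 units on all 4 arrays, so they give no measure of change.

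Many ribosomal protein genes are read only by probe sets that list several symbols. There were 32 such probe sets, which list 27 symbols of the rule, 25 of them not among the members, and no gene is named from them. In 26 of them the mean lay above 428 units, with median levels of 23224 units in progenitors, 17850 at day 7, 56306 at day 10 and 53602 with TNF. Their median log2 ratios were -0.37 for day 7 over progenitor, 1.51 for day 10 over day 7, 1.15 for day 10 over progenitor and -0.07 for TNF over day 10. Between day 10 and day 7, 21 of 26 were at least 2-fold higher (8.7% of all genes) and 0 lower (6.94%). Quantile normalization gave 4 higher (6.7% of all genes) and 0 lower (7.85%), with a median of 0.12. These values lie close to those of the members (-0.38, 1.58, 1.22 and -0.11).

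Other lists of the protein synthesis machinery are given beside the ribosomal proteins. Of 23 ribosome biogenesis genes above 428 units, whose products process rRNA and assemble subunits, 9 were at least 2-fold lower at day 7 than in progenitors (10.4% of all genes) and 0 higher (14.3%), with a median of -0.85. After spike-in centring 5 were lower (5.92% of all genes) and 1 higher (20.4%). Gnl3, which encodes nucleostemin, read 576 units at day 7 and 2314 in progenitors, and Nop56, a core protein of box C/D particles that methylate rRNA, read 1191 and 4118 units. Nop58, its partner, read 530 units at day 7 and 1657 in progenitors. The median of the biogenesis genes was -0.00 at day 10 against day 7, while that of the ribosomal proteins was 1.58. Of the biogenesis genes 0 were higher (8.7% of all genes) and 0 lower (6.94%). After quantile normalization these 2 medians were -0.21 and 0.26. After spike-in centring they were -1.48, with 21 of 23 biogenesis genes at least 2-fold lower (76.7% of all genes), and 0.10. With TNF, Gnl3 read 287 units, against 677 without it, and Myc, a regulator of ribosome production, 368 units, against 710.

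Mitochondrial ribosomal proteins, which build a separate ribosome inside mitochondria, were also compared. Of 49 above 428 units, 8 were at least 2-fold lower at day 7 than in progenitors (10.4% of all genes) and 1 higher (14.3%), with a median of -0.54. Against day 7, their median at day 10 was 0.11, with 1 higher (8.7% of all genes) and 0 lower (6.94%). Quantile normalization gave 1 higher (6.7% of all genes) and 1 lower (7.85%). Spike-in centring gave a median of -1.37 with 0 higher (0.999% of all genes) and 45 lower (76.7%). Mrpl52, the 1 higher gene at day 7, read 5504 units at day 7 and 1824 in progenitors, and Mrpl17, the 1 higher at day 10, read 1599 units at day 10 and 447 at day 7. With TNF, Mrpl17 read 522 units, against 1599 without it.

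Translation factors and other genes with TOP mRNAs held members like the ribosomal proteins in brightness. Of 13 above 428 units, 5 were at least 2-fold higher at day 10 than at day 7 (8.7% of all genes) and 1 lower (6.94%), with a median of 0.44, or -0.09 after quantile normalization. After spike-in centring the median was -1.04, with 1 higher (0.999% of all genes) and 7 lower (76.7%). Eef1a1, which brings aminoacyl-tRNA to the ribosome, read 98672 units at day 10 and 14099 at day 7, 7.0-fold higher, with log2 ratios of 2.81 and 1.67. Eef2, which moves the ribosome along the mRNA, read 42190 units at day 10 and 15931 at day 7 (2.65-fold, 1.40 and 0.42). Tpt1, a TOP mRNA for a growth-related protein, read 87721 units at day 10 and 24396 at day 7 (3.60-fold, 1.85 and -0.09). Hnrnpa1 was the 1 lower gene, at 566 units at day 10 and 1154 at day 7. Among 33 initiation factor genes above 428 units the median was 0.12 at day 10 against day 7, with Eif3f and Eif4ebp1 at least 2-fold higher, where 8.7% of all genes were, and Eif5b lower, where 6.94% were. Eif3f read 612 units at day 10 and 123 at day 7, which with the floor of 428 units is at least 1.43-fold. After spike-in centring the median was -1.36, with 0 higher (0.999% of all genes) and 27 lower (76.7%). Eif4ebp1, an mTOR target that restrains cap-dependent translation, read 5459 units at day 10 and 1797 at day 7, 3.04-fold higher. Whether the lists differ from each other was not tested.

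**Figure D5:**
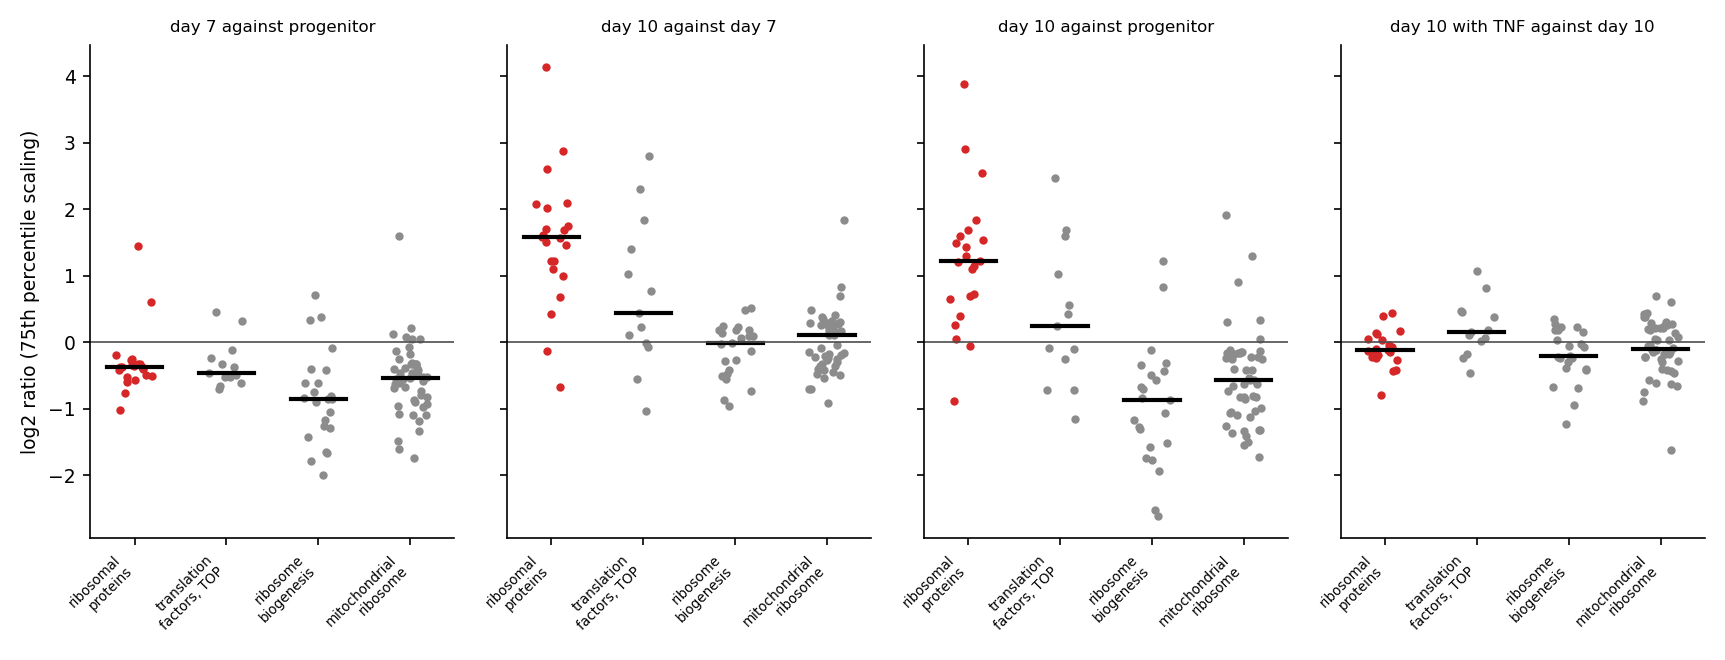
Log2 ratios in the 75th percentile scaling for ribosomal proteins (22 genes, red) and for translation factors and TOP genes (13), ribosome biogenesis (23) and mitochondrial ribosomal proteins (49), in the 4 comparisons. Points are genes with a mean above 428 units and bars are medians. At day 7 against progenitor all 4 medians lie below 0, and at day 10 against day 7 that of ribosomal proteins lies at 1.58 and that of ribosome biogenesis at -0.00. The lists were not matched for level.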

How the data were processed

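Total RNA of 4 mouse samples was measured on 1 Affymetrix array each. The authors deposited 1 linear intensity per probe set, with the software, background method and scaling not given in the sources used here. On each array 22.8% to 24.3% of values lay below 0. Of 12654 probe sets, 10276 outside the controls carry 1 gene symbol and 363 several, with symbols updated through Entrez numbers to RefSeq (GRCm38.p6). Arrays were then scaled here to one 75th percentile (factors 0.962 to 1.05), floored at 105 units and converted to log2. Calls are at least 2-fold among genes with a mean above 428 units. Quantile normalization, spike-in centring (9 probe sets), the values as deposited, other floors, a 3-fold rule, all probe sets of a gene and the removal of family-shared probe sets were alternatives. Named were fixed members, the highest and lowest ratios of each comparison, the brightest and dimmest members, all at least 2-fold apart after quantile normalization, and the largest ratios of other lists. Rpl8, Rps18, Cd79b and the genes whose promoters are printed were chosen after their values were seen. Members and lists were chosen with earlier results of these data known. Scripts used python 3.11.15, numpy 2.4.6 and pandas 2.3.3 and were tested on simulated data. The number of arrays, 1 per group, limits precision.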

Additional observations from a re-analysis of the deposited data

How the results depend on the processing

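The medians moved by more than 0.1 on the log2 scale as follows. At day 7 against progenitor the median was -0.22 after quantile normalization and -0.04 after spike-in centring. Between day 10 and day 7 it was 1.46 in the values as deposited, 0.26 after quantile normalization, 0.10 after spike-in centring and 1.36 over all probe sets of a gene. At day 10 against progenitor it was 1.10, 0.15 and 0.08 in the first 3 of these settings. For TNF against day 10 it was 0.09 after quantile normalization and 0.39 after spike-in centring. Counts moved by over 1.5 times as follows. At day 7 against progenitor 0 members were higher with the floor at 428 units, with a 3-fold rule or over all probe sets, and 0 lower with spike-in centring or the 3-fold rule. Between day 10 and day 7, 7 were higher and 1 lower after quantile normalization, 3 and 3 after spike-in centring, and 11 higher with the 3-fold rule. At day 10 against progenitor, 3 were higher and 1 lower after quantile normalization, 3 and 3 after spike-in centring, 6 higher with the 3-fold rule and 1 lower in the values as deposited. Adding the probe sets that list several symbols, an alternative chosen after seeing the data, gave 38 and 30 higher of 48. Quantile normalization turned the sign, for day 10 over day 7, of Rps4x (-0.17), Rps10 (-0.55), Rps24 (-0.02), Rpl8 (-0.46) and Rps18 (-0.05), which were at least 2-fold higher before it, and at day 10 against progenitor that of Rps24 (-0.17) and Rps18 (-0.09); the cause was not tested. In all, 75 values of medians and counts kept within these limits under an alternative and 29 moved. No replicate could be left out, as there is 1 array per group. No paired analysis was possible because each group has 1 array.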
